A study of Mus musculus with 106 samples.

Results

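The 8 genes described here carry the main steps of glycogen synthesis and breakdown: Gys1 and Gys2, Gbe1, Ugp2, Ppp1r3c, Pygl, Pygm and Pygb. They were chosen by symbol, with earlier results of these data known, and each was listed once in all 4 count tables, which share 19168 genes. The samples were tissues of male C57BL/6J mice, 8 weeks old at the start, housed in the cold (10 °C) or the warmth (34 °C), with controls at 22 °C, to describe how gene expression of each organ responds to temperature. Mice of the 10 °C experiment passed through 18 °C and then 14 °C, each for 5 days, before 2 weeks at 10 °C, and were sampled with their controls at 11 weeks of age, or at 12 weeks for quadriceps. Mice of the 34 °C experiment came from another supplier, spent 4 weeks at 34 °C and were sampled with their own controls at 12 weeks of age. All mice had standard chow.

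The 10 °C experiment covered 11 tissues in 75 libraries: interscapular brown adipose tissue (iBAT), inguinal subcutaneous adipose tissue (ingSAT), perigonadal visceral adipose tissue (pgVAT), quadriceps, liver, ileum, spleen, bone marrow, brain, hypothalamus and spinal cord. The 34 °C experiment covered 5 of these tissues (iBAT, quadriceps, liver, ileum and brain) in 30 libraries. Each group held 3 libraries of 2 pooled mice, except 6 single mice in bone marrow, 5 in spinal cord and 2 libraries for brain at 22 °C in the 10 °C experiment. The total count per library was between 4262403 and 58290770 (median 17676815) for the 10 °C experiment and, for the 34 °C experiment, between 29545458 and 62880248 (median 41889787). No pair of libraries held identical values. Several libraries carried markers of another organ, and their values are given beside the results they touch. Epididymis markers were high in 2 of 3 pgVAT libraries at 10 °C and lower but present in those at 22 °C. They were also found in the first quadriceps library at 10 °C. Skeletal muscle markers were found in most iBAT and ingSAT libraries. Brown fat markers were found in the third pgVAT and the third liver library at 22 °C of the 10 °C experiment. Pancreas markers were found in 1 quadriceps library at 22 °C and in spleen libraries at both temperatures. Liver markers were found in 1 brain library at 22 °C. This brain library was left out of every comparison, because it is not part of the group mean the authors used.

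Glycogen is a branched store of glucose. Ugp2 encodes UDP-glucose pyrophosphorylase, which makes the UDP-glucose that glycogen synthase adds to the growing chain. Gys1 is the synthase of muscle and most tissues and Gys2 that of liver, and Gbe1 encodes the branching enzyme. Ppp1r3c encodes a subunit that brings protein phosphatase 1 to glycogen, where it activates synthase and inactivates phosphorylase. Phosphorylase releases glucose units from the chain, and its liver, muscle and brain forms are encoded by Pygl, Pygm and Pygb. In brown fat, glycogen is known as a local store that is used and refilled during thermogenesis.

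The members lie on 7 chromosomes (GRCm38, GENCODE M21, whole gene). Gys1 is on the plus strand at chr7:45434844-45456619, Gys2 on the minus strand at chr6:142422613-142473109 and Gbe1 on the plus strand at chr16:70313949-70569716. Ugp2 is on the minus strand at chr11:21321138-21371201 and Ppp1r3c on the minus strand at chr19:36731731-36736653. Pygl is on the minus strand at chr12:70190811-70231488, Pygm on the plus strand at chr19:6384399-6398459 and Pygb on the plus strand at chr2:150786735-150831758. Exons of Gys1 share 310 bases with those of Ruvbl2 on the opposite strand, and exons of Ugp2 share 78 bases with Gm12043, so reads from these stretches cannot be told apart in the 8 tissues whose kit did not mark strand.

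At 22 °C the members differed strongly in where they were found. Levels are given as CPM, the count of a gene scaled to a common library size, after normalisation by the trimmed mean of M values (TMM), as mean ± SD, and between genes only after division by exon length. The TMM factors were computed within each tissue's own comparison, so different tissues were not normalised to each other. Pygm was highest in quadriceps, at 12320 ± 2932 CPM (n = 3), with iBAT next at 247 ± 40.3 CPM. Those iBAT libraries also held 7334 to 10404 CPM of 10 skeletal muscle markers, and in the 34 °C experiment the 2 iBAT libraries at 22 °C with only 4.31 and 10.4 CPM of these markers held 7.98 and 5.28 CPM of Pygm. Pygl was highest in iBAT (963 ± 251 CPM, n = 3), liver (688 ± 25.1, n = 3) and bone marrow (670 ± 89.1, n = 6), and the ranges of these neighbours overlapped. Pygb led in spinal cord (533 ± 17.5 CPM, n = 5), above pgVAT (454 ± 19.9, n = 3) with no overlap.

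The synthesis genes followed other orders. Gys1 was highest in quadriceps (688 ± 133 CPM) and then in iBAT (273 ± 70.4 CPM), and was lowest in liver (5.56 ± 2.58 CPM). Gys2 was highest in liver (129.7 ± 6.95 CPM) and iBAT (102 ± 32.9 CPM), whose ranges overlapped, followed by ingSAT (32.4 ± 18.7 CPM) and pgVAT (6.63 ± 2.28 CPM), each below the tissue before it with no overlap. In the other 7 tissues Gys2 did not exceed a mean of 0.305 CPM, and no count was found in any of the 12 bone marrow libraries, where 3 counts in the shallowest would have been 0.192 CPM. Gbe1 was highest in iBAT (472 ± 68.7 CPM), above ingSAT (165 ± 23.7 CPM) with no overlap, and Ugp2 in quadriceps (554 ± 19.2 CPM), above iBAT (303 ± 69.1 CPM). Ppp1r3c was highest in quadriceps (405 ± 133 CPM), with iBAT (174 ± 40.7 CPM) and liver (142 ± 41.8 CPM) next and overlapping, and lowest in bone marrow (0.178 ± 0.0836 CPM). Over the 8 genes, the ranges of 46 of 80 neighbouring tissue pairs did not overlap, and 47 did not with CPM by library totals. Libraries from bone marrow, spinal cord and quadriceps came from another sequencing site and, by the labels or the methods, another kit than those of the other 8 tissues, so their place in an order cannot be told apart from site and kit.

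**Figure D1:**
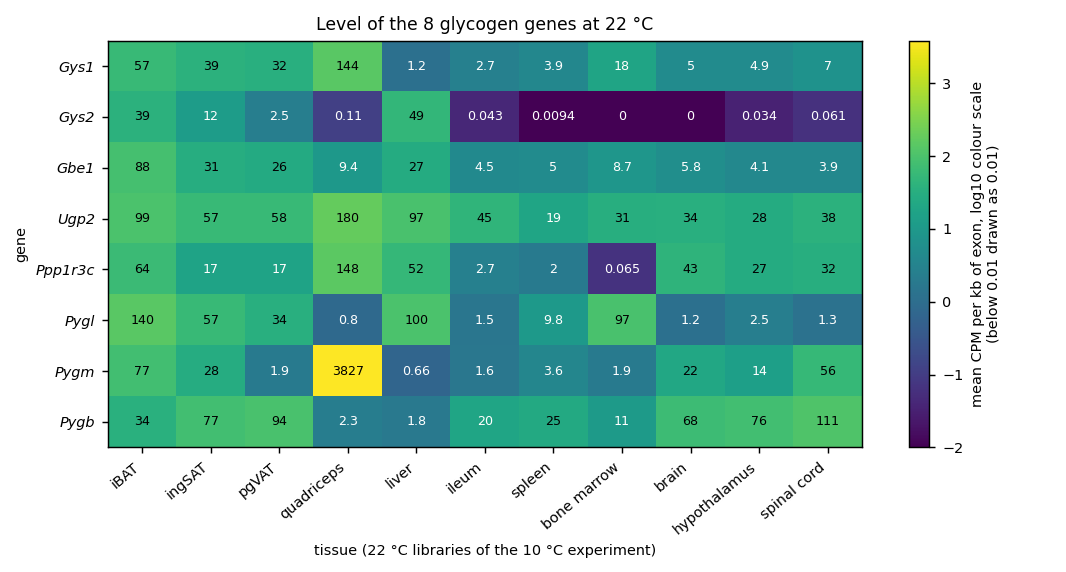
Heat map of the mean level of each of the 8 glycogen genes (rows) in the 22 °C libraries of 11 tissues (columns) of the 10 °C experiment, in CPM per kb of exon on a log10 colour scale, with the mean printed in each cell. Pygm in quadriceps is the brightest cell, and the Gys2 row is dark outside liver and the 3 fat depots.

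Within each enzyme family, the form that dominated per kb of exon depended on the tissue. Pygl made up 97.6 ± 0.767% of phosphorylase CPM per kb in liver, 88.0 ± 2.19% in bone marrow and 55.1 ± 7.17% in iBAT, where Pygm, which varied with the muscle markers, took 30.8 ± 4.94%. Pygm made up 99.9 ± 0.0222% in quadriceps. Pygb made up 86.1 ± 0.675% in ileum, 82.3 ± 0.680% in hypothalamus, 74.4 ± 1.29% in brain (n = 2), 72.6 ± 0.560% in pgVAT and 66.1 ± 1.20% in spinal cord (n = 5). Of the synthases, Gys2 took 97.7 ± 0.943% in liver, 40.1 ± 6.98% in iBAT, 22.5 ± 6.87% in ingSAT and 7.16 ± 2.57% in pgVAT.

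**Figure D2:**
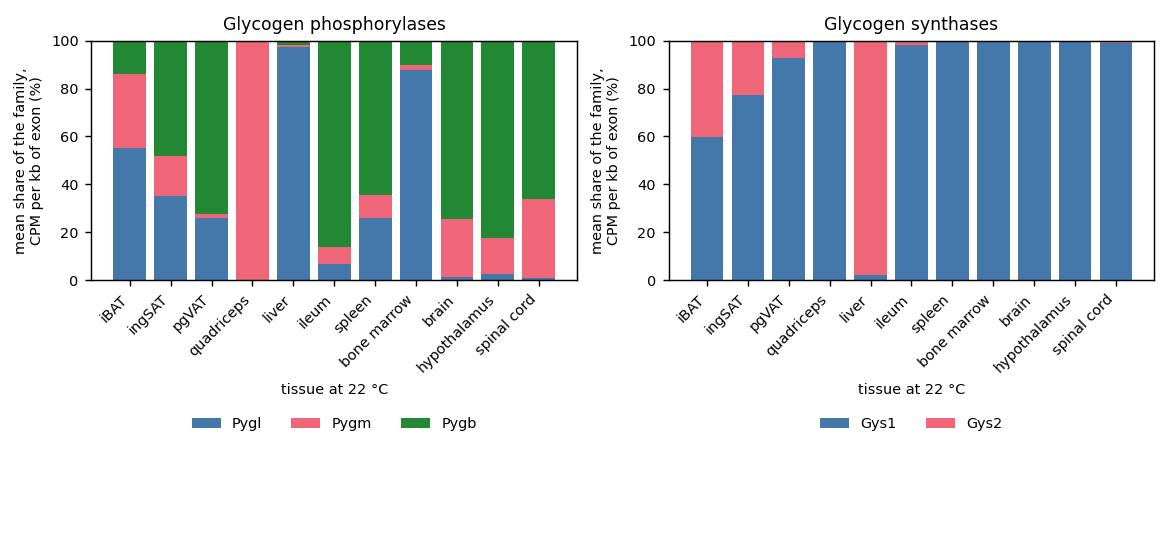
Mean share (%) of each phosphorylase form (left) and each synthase form (right) in its family's summed CPM per kb of exon, at 22 °C in 11 tissues. Pygl fills most of the liver and bone marrow bars, Pygm the quadriceps bar and Pygb the ileum and nervous tissue bars, while Gys2 fills the liver bar and part of the 3 fat bars.

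After cold exposure, the genes moved mainly in 2 fat depots. A gene was called at the study's limits, an unadjusted p of at most 0.05 with a fold above 1.5, in edgeR's quasi-likelihood test of each tissue against its own 22 °C libraries. The Benjamini-Hochberg adjusted p over all genes tested in that tissue is given beside it. Of 88 gene and tissue pairs at 10 °C, 81 passed the filter on low counts (average log2 CPM above 0) and 16 were called, 13 higher and 3 lower. iBAT gave 7 of these calls, ingSAT 6, quadriceps 2 and pgVAT 1, and the other 7 tissues gave none. Of 40 pairs at 34 °C, 36 passed the filter and 4 were called, 1 higher and 3 lower. These p-values measure the spread between libraries, most of which are pools of 2 mice, and in bulk tissue fewer cells of a type and less RNA per cell cannot be told apart.

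**Figure D3:**
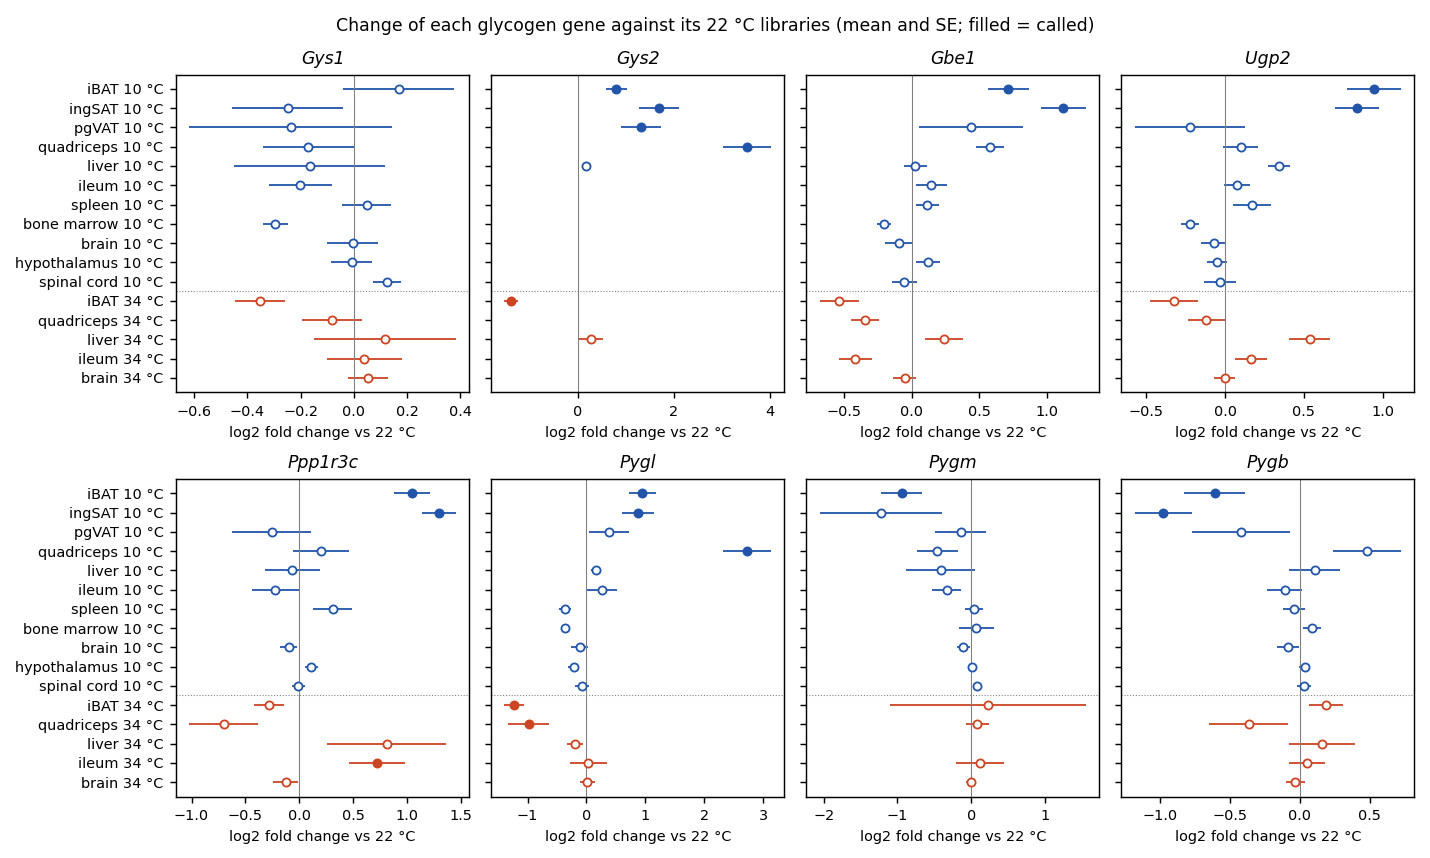
log2 fold change with its SE for each of the 8 glycogen genes (panels) in 11 tissues at 10 °C (blue, above the dotted line) and 5 tissues at 34 °C (red), each against its own 22 °C libraries, where a filled point marks a call at the study's limits and a gene with no point was not tested. Filled points cluster in iBAT and ingSAT at 10 °C and 2 of the 4 at 34 °C are in iBAT.

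In iBAT at 10 °C, 7 of the 8 members were called, 5 higher (Gys2, Gbe1, Ugp2, Ppp1r3c and Pygl) and 2 lower (Pygm and Pygb), against 13.2% of the 12791 genes tested, of which 6% were higher and 7.24% lower. The 5 higher members also had an adjusted p under 0.05, as did 11.3% of all genes. In 6 members the 10 °C and 22 °C libraries did not overlap, against 33.3% of all genes. The median log2 fold change of the members was 0.76, against -0.0239 over all genes. In ingSAT, 6 of 8 were called, 5 higher (the same 5 genes as in iBAT) and 1 lower (Pygb), against 16.3% of 13982 genes, with 7.2% higher and 9.14% lower. There 4 members had an adjusted p under 0.05, against 7.51% of all genes, 6 did not overlap, against 32.8%, and the members' median was 0.856 against -0.00949.

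Ppp1r3c, the phosphatase targeting subunit, is shown first with the sequence before its start because it had the lowest adjusted p of the 8 members in both iBAT and ingSAT. The stretch below holds the bases from 250 to 50 before the RefSeq start (GRCm38.p6, minus strand, chr19:36736654-36736854), with bases inside annotated exons left out.
Ppp1r3c: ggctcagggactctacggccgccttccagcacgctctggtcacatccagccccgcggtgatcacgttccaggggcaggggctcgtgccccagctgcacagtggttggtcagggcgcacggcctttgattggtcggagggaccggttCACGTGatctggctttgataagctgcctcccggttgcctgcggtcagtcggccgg
Capitals mark the E-box CACGTG, which reads the same on both strands and was found in 6.02% of the 250-base windows before 32851 RefSeq starts. In iBAT, Ppp1r3c was at 373, 353 and 350.2 CPM in the 10 °C libraries and at 220.2, 143 and 160.3 CPM in the 22 °C libraries. All 3 cold libraries were above all 3 controls, and the log2 fold change was 1.04 (SE 0.17, edgeR adjusted p = 0.00654). In ingSAT it was at 136, 99.4 and 115 CPM at 10 °C and at 47.9, 41.3 and 53.3 CPM at 22 °C, again without overlap, with a log2 fold change of 1.29 (SE 0.16, edgeR adjusted p = 0.00839). In pgVAT the groups overlapped, at 46.5, 49.0 and 19.95 CPM against 47.9, 35.8 and 54.5 CPM.

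Of the genes that supply and build the chain, Ugp2 and Gbe1 were higher at 10 °C in both iBAT and ingSAT. The sequences before their starts are shown for comparison with that of Ppp1r3c (both GRCm38.p6, RefSeq): for Gbe1 the 250 bases at chr16:70313699-70313948 on the plus strand, and for Ugp2 the 192 bases at chr11:21371268-21371459 on the minus strand, before the first of its 2 listed starts.
Gbe1: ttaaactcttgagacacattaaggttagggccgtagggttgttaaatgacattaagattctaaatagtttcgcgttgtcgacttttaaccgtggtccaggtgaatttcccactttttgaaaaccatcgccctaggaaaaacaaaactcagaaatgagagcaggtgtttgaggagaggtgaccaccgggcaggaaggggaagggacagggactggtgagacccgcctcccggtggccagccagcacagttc
Ugp2: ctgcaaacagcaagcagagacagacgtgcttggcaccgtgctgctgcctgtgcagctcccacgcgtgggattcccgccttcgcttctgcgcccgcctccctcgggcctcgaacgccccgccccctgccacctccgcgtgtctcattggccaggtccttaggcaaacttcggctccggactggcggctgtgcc
Neither window, nor that of the second Ugp2 start, holds CACGTG, the cAMP response element core TGACG or the nuclear receptor hexamer AGGTCA on either strand, so neither has capitals. Of all 250-base windows, 17.8% hold TGACG and 14% hold AGGTCA.

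Ugp2 was at 565, 605 and 577 CPM in iBAT at 10 °C and at 373, 300.1 and 235 CPM at 22 °C, with no overlap and a log2 fold change of 0.94 (SE 0.17, edgeR adjusted p = 0.0104). In ingSAT it was at 363, 301 and 277 CPM against 164, 187 and 175 CPM, a log2 fold change of 0.84 (SE 0.14, edgeR adjusted p = 0.0206). In both depots the groups of this UDP-glucose producing enzyme were apart.

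Gbe1 was at 738, 845 and 739.8 CPM in iBAT at 10 °C and at 509.9, 513 and 392 CPM at 22 °C, a log2 fold change of 0.72 (SE 0.15, edgeR adjusted p = 0.0190). In ingSAT it was at 419, 329.9 and 329 CPM against 176, 182 and 138 CPM, a log2 fold change of 1.12 (SE 0.17, edgeR adjusted p = 0.0140). The 10 °C libraries of the branching enzyme gene were above all 22 °C libraries in both depots. Its iBAT call was lost when libraries were scaled by their totals alone, at a log2 fold change of 0.55.

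Gys2, the liver-type synthase, was at 157, 203 and 177 CPM in iBAT at 10 °C and at 100.4, 70.4 and 136 CPM at 22 °C, a log2 fold change of 0.80 (SE 0.22, edgeR adjusted p = 0.0468). In ingSAT it was at 119, 92.6 and 105 CPM against 31.6, 51.4 and 14.1 CPM, a log2 fold change of 1.70 (SE 0.42, edgeR adjusted p = 0.0558). The groups did not overlap in either depot, although 1 of the 3 22 °C libraries of ingSAT was far below the rest. Albumin (Alb) was at 33.6, 43.0 and 62.6 CPM in the 22 °C iBAT libraries and at most at 0.408 CPM in the 10 °C ones, and the 6 liver markers summed to 174.8 to 384 CPM at 22 °C and 119.9 to 176.2 CPM at 10 °C, with overlap. In ingSAT they summed to 1627 to 4442 CPM at 22 °C and 1011 to 1329 CPM at 10 °C. Alb in ingSAT was at 25.4, 51.9 and 57.1 CPM at 22 °C and 61.4, 30.02 and 47.5 CPM at 10 °C, with overlap. Most of the ingSAT sum therefore came from markers other than Alb. Liver libraries at 22 °C in the same experiment held 46514, 49406 and 51230 CPM of Alb and 131, 122 and 136 CPM of Gys2. The part of liver RNA in the Gys2 values was not tested.

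Gys1, the muscle-type synthase, was not called in any fat depot. It was at 249, 371 and 301 CPM in iBAT at 10 °C and at 209, 262 and 349 CPM at 22 °C, with overlapping groups and a log2 fold change of 0.17 (SE 0.21, edgeR adjusted p = 0.645). In ingSAT its log2 fold change was -0.25 (SE 0.21). The share of Gys2 in synthase CPM per kb was 51.4 ± 1.76% in iBAT at 10 °C against 40.1 ± 6.98% at 22 °C, and 55.0 ± 1.13% against 22.5 ± 6.87% in ingSAT (n = 3 each).

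Among the phosphorylases, Pygl was higher at 10 °C in iBAT and ingSAT, whereas Pygb and, in iBAT, Pygm were lower. The 157 bases before the RefSeq start of Pygl (GRCm38.p6, minus strand, chr12:70227684-70227840) are shown because this gene was called in 3 tissues at 10 °C and in 2 at 34 °C. This start lies inside the GENCODE gene, whose outermost start is further upstream.
Pygl: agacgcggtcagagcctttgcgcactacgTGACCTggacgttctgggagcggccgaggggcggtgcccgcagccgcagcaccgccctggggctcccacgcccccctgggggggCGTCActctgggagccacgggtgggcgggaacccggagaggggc
Capitals mark 1 match to AGGTCA and 1 match to TGACG, both on the opposite strand, so that the printed strand reads TGACCT and CGTCA. No matches overlapped. Pygb held 1 match to TGACG, Gys1 and Pygm held none of the 3 motifs, and no window was at hand for Gys2.

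Pygl was at 1517, 2248 and 1808 CPM in iBAT at 10 °C and at 1011, 1187 and 692 CPM at 22 °C, with a log2 fold change of 0.95 (SE 0.23, edgeR adjusted p = 0.0316). In ingSAT it was at 885, 643 and 652 CPM against 455, 482 and 251 CPM, with a log2 fold change of 0.88 (SE 0.28, edgeR adjusted p = 0.0987). No 22 °C library reached the lowest 10 °C library in either depot.

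Pygb, the brain-type form, was lower at 10 °C in ingSAT, at 228, 152 and 182 CPM against 339, 450 and 319 CPM, with a log2 fold change of -0.98 (SE 0.21, edgeR adjusted p = 0.0376) and no overlap. In iBAT it was at 90.8, 123 and 109.9 CPM against 111, 176 and 208 CPM, where the groups overlapped and the log2 fold change was -0.61 (SE 0.22, edgeR adjusted p = 0.107). The iBAT call of Pygb was lost when the first 10 °C library or the second or the third 22 °C library was left out, and leaving out single libraries gave log2 fold changes from -0.83 to -0.41. The Pygl share of phosphorylase CPM per kb was 81.2 ± 3.46% in iBAT at 10 °C against 55.1 ± 7.17% at 22 °C, 67.8 ± 5.90% against 34.9 ± 3.68% in ingSAT, and 37.7 ± 0.6252% against 25.97 ± 0.304% in pgVAT (n = 3 each). Because Pygm is in this sum and varied with the muscle markers, the share was also taken of Pygl and Pygb alone, a choice made after seeing the data. It was then 92.3 ± 0.387% against 79.6 ± 8.66% in iBAT, 73.1 ± 1.64% against 42.2 ± 6.46% in ingSAT and 38.3 ± 0.518% against 26.4 ± 0.372% in pgVAT, without overlap in each depot.

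Pygm, the muscle form, was lower in iBAT at 10 °C, at 133, 179 and 73.8 CPM against 293, 228 and 219.5 CPM, with a log2 fold change of -0.94 (SE 0.28, edgeR adjusted p = 0.0607). The 10 skeletal muscle markers, such as Acta1, Ckm and Myh4, moved with it: they summed to 2873 to 5871 CPM at 10 °C and 7334 to 10404 CPM at 22 °C. Per 1000 CPM of these markers, Pygm was at 24.9, 30.4 and 25.7 CPM at 10 °C and at 28.2, 29.3 and 29.9 CPM at 22 °C, with overlapping groups. The part of muscle in the Pygm difference was not tested. In ingSAT the second 10 °C library held 3.89 CPM of Pygm and 33.8 CPM of muscle markers, while the other 5 libraries held 47.5 to 115 CPM and 1354 to 3358 CPM. In quadriceps itself the same quotient ran from 40.7 to 46.7 CPM over both experiments.

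The brown fat markers (Ucp1, Cidea, Cox7a1 and Cox8b) also moved in iBAT and ingSAT, where most members were called. In pgVAT their sums overlapped between groups only through the third 22 °C library, at 451 CPM. The first and second 22 °C libraries of pgVAT held 9.08 and 22.3 CPM, below the 32.6 to 60.7 CPM of its 10 °C libraries. In iBAT these markers summed to 13484 to 17220 CPM at 10 °C and 8000 to 12794 CPM at 22 °C. In ingSAT they summed to 2215 to 2831 CPM at 10 °C and 139 to 195 CPM at 22 °C. The sum of the 5 adipocyte markers overlapped between the groups in both depots, at 13402 to 14916 against 12949 to 14244 CPM in iBAT and at 22997 to 26020 against 16129 to 24384 CPM in ingSAT. Of these markers, Adipoq was lower at 10 °C in iBAT without overlap, at 979 to 1051 against 1292 to 1723 CPM. In ingSAT it overlapped, at 2415 to 3682 against 3226 to 4639 CPM. The part of cell composition in the members' differences was not tested.

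**Figure D4:**
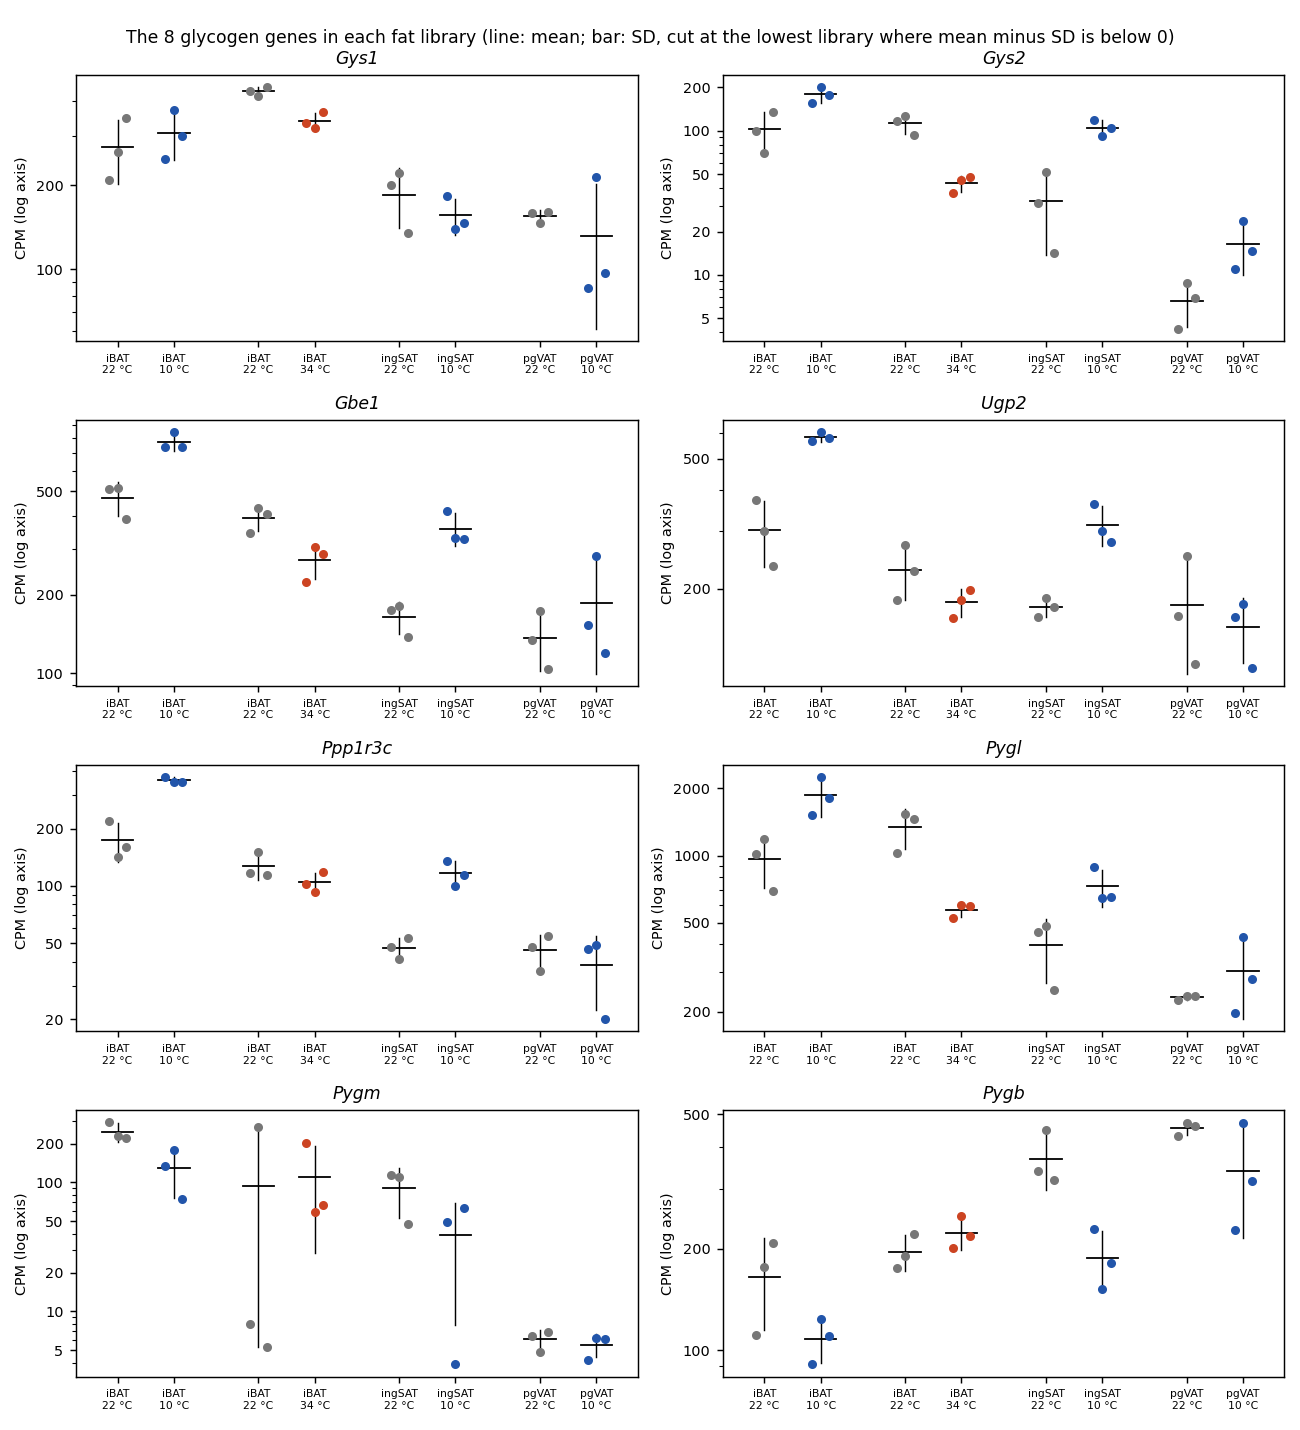
CPM (log axis) of each of the 8 glycogen genes in every fat library, with grey points for 22 °C, blue for 10 °C and red for 34 °C, a line for the mean and a bar for the SD. In iBAT and ingSAT the blue points of Gys2, Gbe1, Ugp2, Ppp1r3c and Pygl lie above the grey ones, and in iBAT the red points of Gys1, Gys2, Gbe1 and Pygl lie below the grey ones of their own experiment.

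In pgVAT at 10 °C, only Gys2 was called of 8 members tested, against 7.94% of 14856 genes. It was at 11.0, 23.5 and 14.6 CPM at 10 °C and at 4.21, 8.73 and 6.95 CPM at 22 °C, without overlap, with a log2 fold change of 1.31 (SE 0.42, edgeR adjusted p = 0.593). The call was lost without the first 22 °C library, at a log2 fold change of 1.06. The third 22 °C library held 451 CPM of the brown fat markers. The first and second 22 °C libraries held 9.08 and 22.3 CPM of them, and the 10 °C libraries 32.6 to 60.7 CPM. The first and the third 10 °C libraries held 15864 and 19621 CPM of the 4 epididymis markers (Adam7, Crisp1, Lcn5 and Lcn8), the second held 2.39 CPM and the 22 °C libraries held 574 to 2582 CPM. The second library was also the highest of the 10 °C libraries for Gys1, Gys2, Gbe1, Ugp2, Ppp1r3c, Pygl, Pygm and Pygb. When this library alone stood for 10 °C, a choice made after seeing the data in which 1 library was assumed to vary like the others, Gys2 (log2 fold change 1.87), Gbe1 (1.07) and Pygl (0.91) were called, with edgeR adjusted p-values of 0.175, 0.379 and 0.351.

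The difference between depots was tested directly. In no pair of depots did a member's 10 °C change differ at an edgeR adjusted p under 0.05, while 0.0691% of genes did so between iBAT and ingSAT, 0.407% between iBAT and pgVAT and 0.159% between ingSAT and pgVAT. At an unadjusted p under 0.05, 4 of 24 gene and pair combinations differed, all for Ppp1r3c or Ugp2 against pgVAT. The largest was Ppp1r3c, whose log2 change was 1.55 larger in ingSAT than in pgVAT (SE 0.39, edgeR adjusted p = 0.129). Without the second 10 °C library of pgVAT, which held almost no epididymis markers, the count rose from 0 to 3.

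Across the 8 tissues sequenced together, the 10 °C change differed between tissues for 4 members in edgeR's interaction test, against 16.4% of 15944 genes: Ugp2 (adjusted p = 0.00472), Ppp1r3c (adjusted p = 0.00504), Gbe1 (adjusted p = 0.0234) and Pygl (adjusted p = 0.0304). Pygb (adjusted p = 0.0620), Gys2 (0.213), Pygm (0.561) and Gys1 (0.929) did not pass. These 4 genes were the ones with an adjusted p under 0.05 in iBAT other than Gys2.

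At 34 °C, Gys2 and Pygl were called lower in iBAT and no member was called higher. These 2 of 8 members stand against 19.4% of 12331 genes called in either direction and 7.19% called lower, and 4 had an adjusted p under 0.05, all lower, against 28.9%. The libraries of 4 members did not overlap, a share close to the 48.6% over all genes, and the members' median log2 fold change was -0.339, against 0.0247 over all genes. Gys2 was at 37.1, 45.3 and 47.6 CPM at 34 °C and at 117, 128 and 94.0 CPM at 22 °C, with a log2 fold change of -1.38 (SE 0.14, edgeR adjusted p = 0.00169). Pygl was at 527, 599.5 and 593 CPM against 1025, 1541 and 1459 CPM, with a log2 fold change of -1.23 (SE 0.16, edgeR adjusted p = 0.00327). For these 2 genes, the liver-type synthase and phosphorylase, the highest 34 °C library was below the lowest 22 °C library.

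Gbe1 and Gys1 fell in iBAT at 34 °C by less than the fold limit. Gbe1 was at 225, 305 and 288 CPM against 346, 432 and 410.0 CPM, with a log2 fold change of -0.54 (SE 0.14, edgeR adjusted p = 0.0304). Gys1 was at 334, 320.3 and 367 CPM against 436, 419 and 451 CPM, with a log2 fold change of -0.35 (SE 0.09, edgeR adjusted p = 0.0291). Ugp2 (log2 fold change -0.32, SE 0.15, edgeR adjusted p = 0.146) and Ppp1r3c (-0.28, SE 0.14, edgeR adjusted p = 0.165) overlapped between groups and did not pass. Pygb had a log2 fold change of 0.19 (SE 0.12).

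Pygm could not be read in this comparison. It was at 7.98, 267 and 5.28 CPM at 22 °C and at 203, 59.4 and 66.4 CPM at 34 °C, and muscle markers summed to 4.31, 6474 and 10.4 CPM and to 5217, 1394 and 1511 CPM in the same libraries. The Pygl share of phosphorylase CPM per kb was 51.4 ± 7.98% at 34 °C against 75.2 ± 9.20% at 22 °C, and the Gys2 share of synthase was 18.7 ± 1.84% against 31.8 ± 4.16%. Of Pygl and Pygb alone, Pygl took 64.3 ± 1.44% at 34 °C and 82.5 ± 2.39% at 22 °C, since Pygm is part of the larger sum. The brown fat markers summed to 5872 to 7254 CPM at 34 °C and 10603 to 14327 CPM at 22 °C, and the endothelial markers Pecam1 and Cdh5 to 477 to 625 CPM against 311 to 389.6 CPM. Adipocyte markers summed to 11157 to 13709 CPM against 13898 to 16315 CPM, and 2 macrophage markers to 48.9 to 75.5 CPM against 27.3 to 40.96 CPM, also without overlap. The adipocyte marker Adipoq did not follow its sum, at 1672, 1522 and 1810 CPM at 34 °C against 1474, 1262 and 1546 CPM, with overlap. The part of these cell types in the members' differences was not tested. The 2 iBAT experiments differ in kit, supplier and age, and the cold and warm changes, each against its own controls, stand side by side here with no test between them.

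With iBAT included, the 34 °C change differed among the 5 tissues for 4 members, against 12.8% of 15039 genes. In edgeR's interaction test these were Gbe1 (adjusted p = 0.0197), Ugp2 (0.0268), Pygl (0.0418) and Gys2 (0.0440). None of the 8 passed when libraries were scaled by their totals alone, and 12 libraries left out one at a time each brought the count to 1 or 2, the lowest being the first iBAT 34 °C, the third liver 22 °C and the first liver 34 °C libraries.

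In quadriceps at 10 °C, 2 of 8 members were called, both higher, against 3.83% of 11841 genes. Gys2, of which muscle had little at 22 °C, was at 4.65, 4.58 and 1.44 CPM at 10 °C and at 0.286, 0.327 and 0.301 CPM at 22 °C, with a log2 fold change of 3.53 (SE 0.50, edgeR adjusted p = 0.102). Pygl was at 48.8, 43.4 and 16.9 CPM against 5.95, 6.80 and 3.80 CPM, with a log2 fold change of 2.72 (SE 0.41, edgeR adjusted p = 0.103). Gbe1 was at 81.6, 74.0 and 70.3 CPM against 52.6, 49.7 and 49.0 CPM, with a log2 fold change of 0.58 (SE 0.10, edgeR adjusted p = 0.144), below the fold limit. These 3 members did not overlap between groups, against 19.1% of all genes, and no member had an adjusted p under 0.05, against 0.0253% of all genes.

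The muscle forms were the major ones throughout. Gys1 was at 590.4, 559 and 685 CPM at 10 °C against 841, 602 and 622 CPM at 22 °C (log2 fold change -0.17, SE 0.17). Pygm was at 8611, 7465 and 10847 CPM against 15685, 10342 and 10923 CPM (log2 fold change -0.46, SE 0.28). Both overlapped between groups. Gys2 made up 1.08 ± 0.608% of synthase CPM per kb at 10 °C and 0.0821 ± 0.0189% at 22 °C, and Pygl 0.202 ± 0.112% of phosphorylase against 0.0215 ± 0.00794% (n = 3 each).

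Ucp1, the uncoupling protein of brown fat, moved with Gys2 and Pygl in quadriceps. It was at 120.3, 95.1 and 27.6 CPM in the same 10 °C libraries and at 0.0476, 0.0578 and 0.395 CPM at 22 °C, and the library lowest in Ucp1 was also the lowest of the 10 °C group in Gys2, Pygl and Gbe1. The 5 adipocyte markers summed to 704, 779 and 273 CPM at 10 °C and 210, 297 and 191 CPM at 22 °C. These groups overlapped only through the third 10 °C library, the one lowest in Ucp1. The first 10 °C library also held 160 CPM of epididymis markers, and the second 39.9 CPM of neutrophil markers. The 4 brown fat markers summed to 492 to 713 CPM and 475 to 684 CPM, with Cox7a1 and Cox8b also expressed by muscle. For comparison, iBAT at 10 °C held 9136 to 12794 CPM of Ucp1. The part of fat, epididymis or neutrophils in the quadriceps values was not tested. The first 22 °C library, which held 1804 CPM of pancreas acinar markers, did not decide a call.

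At 34 °C, quadriceps gave 1 call of 7 members tested, against 1.21% of 11752 genes. Pygl was lower, at 5.28, 2.79 and 7.95 CPM against 13.2, 10.5 and 7.90 CPM at 22 °C, with overlapping groups and a log2 fold change of -0.98 (SE 0.34, edgeR adjusted p = 0.9999). The call was lost without the first 34 °C or the first 22 °C library, at -0.98 and -0.79, and with all 22 °C quadriceps libraries as controls, at -0.60. Gbe1 was at 41.2, 36.2 and 45.3 CPM against 51.6, 50.02 and 54.6 CPM, without overlap, with a log2 fold change of -0.35 (SE 0.10, edgeR adjusted p = 0.9999).

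The 10 °C and 34 °C changes of quadriceps, which have separate controls in the same table, were compared directly. They differed for 3 members, against 0.482% of 11819 genes in edgeR's test. The 10 °C change minus the 34 °C change was 4.16 for Gys2 (SE 0.69, adjusted p = 0.0233), 3.70 for Pygl (SE 0.60, adjusted p = 0.0218) and 0.92 for Gbe1 (SE 0.14, adjusted p = 0.0215), on the log2 scale. All 3 calls were lost when the first or second 10 °C library, the second or the third 22 °C library of the 10 °C experiment, or the first or second 34 °C library was left out, and 1 remained without the first or second 22 °C library of the 34 °C experiment.

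**Figure D5:**
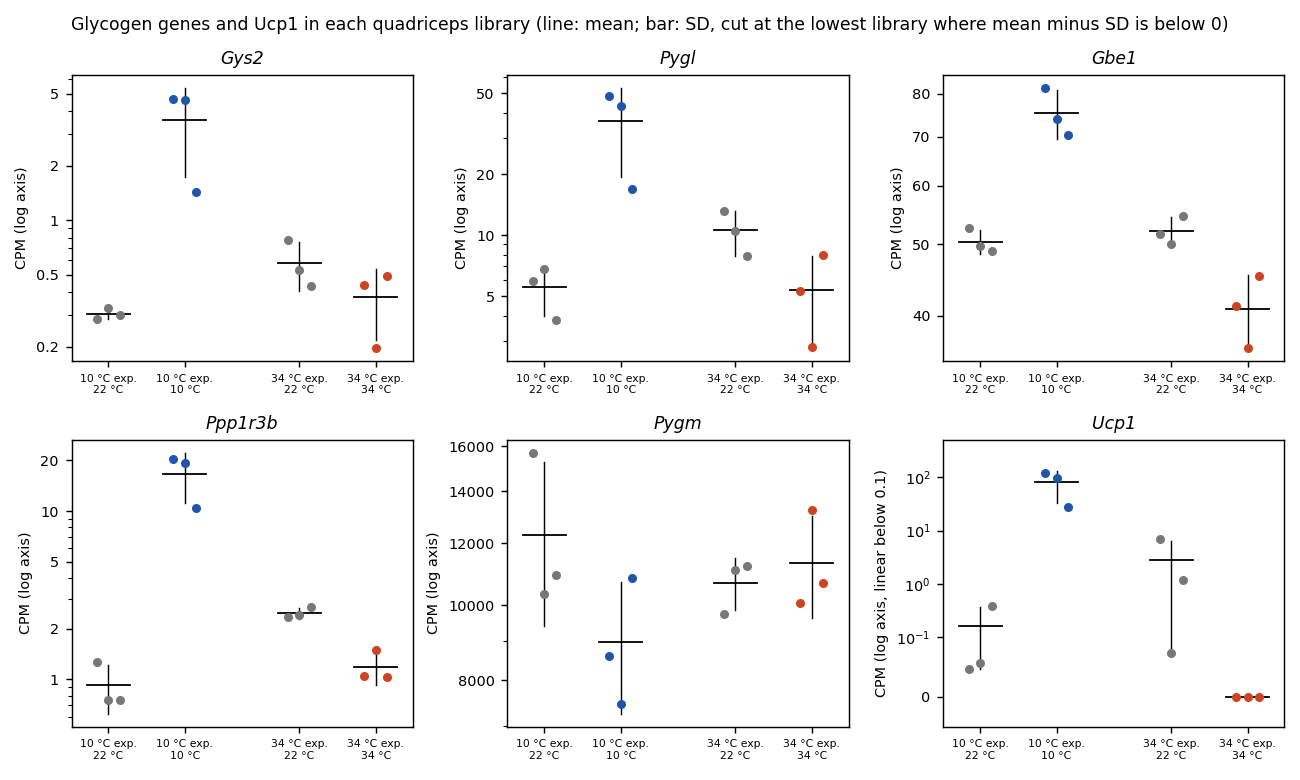
CPM (log axis, linear below 0.1 for Ucp1) of Gys2, Pygl, Gbe1, Ppp1r3b, Pygm and Ucp1 in every quadriceps library, with grey points for 22 °C, blue for 10 °C and red for 34 °C, a line for the mean and a bar for the SD. Gys2, Pygl, Ppp1r3b and Ucp1 are each lowest, within the 10 °C group, in 1 and the same library.

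Liver, the organ that stores glycogen for the circulation, gave no call among the members at either temperature, against 3.28% of 12026 genes at 10 °C and 3.38% of 11179 genes at 34 °C. DESeq2 also gave none there, and 2 members at 10 °C and 1 at 34 °C had an unadjusted edgeR p under 0.05. Ugp2 was at 367, 384 and 384 CPM at 10 °C against 304, 289 and 304 CPM at 22 °C, without overlap, as in 24.1% of genes, with a log2 fold change of 0.34 (SE 0.07, edgeR adjusted p = 0.0947). At 34 °C it was at 567, 519 and 475 CPM against 392, 392 and 291 CPM, also without overlap, with a log2 fold change of 0.54 (SE 0.13, edgeR adjusted p = 0.180). Both differences in Ugp2 were below the fold limit. The 6 hepatocyte markers were also higher without overlap, at 95599 to 99086 against 68520 to 77162 CPM at 10 °C and at 141165 to 147923 against 99690 to 114108 CPM at 34 °C, and their part in the Ugp2 values was not tested.

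The liver synthase and phosphorylase were above their controls at 10 °C without overlap, by less than the fold limit. With Ugp2, 3 of 8 members did not overlap there, against 24.1% of all genes. Gys2 was at 143, 149 and 149 CPM against 131, 122 and 136 CPM (log2 fold change 0.18, SE 0.07). Pygl was at 796, 752 and 749 CPM against 686, 664 and 714 CPM (log2 fold change 0.15, SE 0.08). At 34 °C both overlapped between groups, with Gys2 from 226 to 505 CPM over the 6 libraries. Ppp1r3c varied widely within both liver groups at 34 °C, at 81.8, 129 and 20.6 CPM against 44.7, 25.9 and 61.7 CPM (log2 fold change 0.81, SE 0.55). In the 10 °C experiment, the third 22 °C liver library held 77.9 CPM of Ucp1, and the first and second 1.265 CPM each. The 10 °C liver libraries held 0.982, 14.05 and 1.157 CPM of Ucp1.

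In bone marrow no member passed the fold limit, so none was called, against 1.29% of 12525 genes called. Of 6 tested, 4 had an adjusted p under 0.05, all lower, against 19% of genes. Gys1 was at 66.8, 71.7, 67.8, 68.9, 71.9 and 71.7 CPM in the 6 mice at 10 °C and at 90.2, 87.3, 74.7, 86.8, 85.2 and 89.2 CPM in the 6 mice at 22 °C, with no overlap and a log2 fold change of -0.29 (SE 0.05, edgeR adjusted p = 0.00304). Pygl was at 496, 511, 555, 523, 523 and 526 CPM against 711, 707, 529, 629, 792 and 653 CPM, with some overlap and a log2 fold change of -0.36 (SE 0.07, edgeR adjusted p = 0.00632). Gbe1 (log2 fold change -0.20, edgeR adjusted p = 0.0168) and Ugp2 (-0.22, edgeR adjusted p = 0.0188) were also lower. Neutrophil markers moved with them, at 36457 to 38688 CPM at 10 °C and 39425 to 57345 CPM at 22 °C. The 22 °C library lowest in neutrophil markers was also the lowest in Gys1, Gbe1, Ugp2 and Pygl, and the part of neutrophils in the differences was not tested.

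The remaining tissues gave no call at 10 °C: of 7 members tested in each, none in ileum (2.71% of genes), spleen (2.68%), brain (0.801%), hypothalamus (0.578%) or spinal cord (0.271%). DESeq2 gave none in these tissues either. At an unadjusted edgeR p under 0.05 there were 0 in ileum and brain, 1 in spleen (Pygl, log2 fold change -0.36, SE 0.10), 1 in hypothalamus (Pygl, -0.22, SE 0.09) and 1 in spinal cord (Gys1, 0.12, SE 0.05). In spleen the neutrophil markers summed to 105 to 128 CPM at 10 °C and 360.3 to 726.5 CPM at 22 °C. The pancreas acinar markers summed to 1.91 to 2969 CPM at 10 °C and 0.692 to 1468 CPM at 22 °C in spleen. The part of neutrophils or pancreas in the spleen Pygl value was not tested. The members' log2 fold changes lay between -0.117 and -0.00419 in brain, whose controls were 2 libraries, and between -0.0712 and 0.123 in spinal cord.

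At 34 °C, ileum gave 1 call of 7 tested, against 2.83% of genes. Ppp1r3c was low there, at 2.82, 3.60 and 2.29 CPM at 34 °C and at 2.14, 1.70 and 1.43 CPM at 22 °C, with no overlap and a log2 fold change of 0.72 (SE 0.26, edgeR adjusted p = 0.594). The call was lost when the second or the third 22 °C library or the first or second 34 °C library was left out, and leaving out single libraries gave 0.54 to 0.88. Brain at 34 °C gave none of 7, against 0.193% of genes, with none at an unadjusted edgeR p under 0.05 and none by DESeq2.

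The other 22 genes of glycogen metabolism include the primer glycogenin (Gyg), phosphoglucomutases, the other phosphatase targeting subunits, phosphorylase kinase subunits, glycogen synthase kinases and genes of glycogen turnover in lysosomes. At 10 °C, 13 of their 222 tested pairs were called, 5 higher and 8 lower, and at 34 °C 7 of 97, 5 higher and 2 lower. The share of all genes called at 10 °C ran from 0.271% in spinal cord to 16.3% in ingSAT. For 34 °C it ran from 0.193% in brain to 19.4% in iBAT. In iBAT at 10 °C 2 of 22 were called, against 13.2% of all genes. In ingSAT 8 of 21 were called, 3 higher and 5 lower, against 16.3% of all genes. The median log2 fold change of this list was -0.0562 in iBAT and -0.0991 in ingSAT, where the 8 members had 0.76 and 0.856.

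Ppp1r3b, another subunit that targets protein phosphatase 1 to glycogen and is known best from liver, had calls in 4 comparisons, the most of these 22 genes. It was at 1177, 1115 and 1207 CPM in iBAT at 10 °C and at 400.3, 398 and 257 CPM at 22 °C, a log2 fold change of 1.73 (SE 0.19, edgeR adjusted p = 0.00113). In ingSAT it was at 524, 292 and 363 CPM against 31.4, 40.4 and 14.1 CPM, a log2 fold change of 3.78 (SE 0.43, edgeR adjusted p = 0.00732). In quadriceps it was at 20.5, 19.2 and 10.4 CPM against 1.26, 0.751 and 0.752 CPM, a log2 fold change of 4.19 (SE 0.34, edgeR adjusted p = 0.0278), which was 1 of 3 genes with an adjusted p under 0.05 in that muscle. At 34 °C it was lower in iBAT by less than the fold limit (log2 fold change -0.46, SE 0.10, edgeR adjusted p = 0.0161) and was called in quadriceps (-1.06, SE 0.25, edgeR adjusted p = 0.985). Every one of these 5 comparisons had non-overlapping libraries. Of all genes, 33.3% did not overlap in iBAT, 32.8% in ingSAT and 19.1% in quadriceps at 10 °C. In iBAT at 34 °C, 48.6% did not.

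Calls for the other targeting subunits went in both directions, and no test compared the subunits with each other. Ppp1r3a was lower in iBAT at 10 °C with overlapping groups (log2 fold change -1.18, SE 0.37, edgeR adjusted p = 0.0761). Ppp1r3d was higher in ingSAT at 10 °C (log2 fold change 1.04, edgeR adjusted p = 0.0276) and in quadriceps at 34 °C (0.99, edgeR adjusted p = 0.9999), and lower in spleen at 10 °C (-0.61, edgeR adjusted p = 0.488). Ppp1r3e was lower at 10 °C in ingSAT (-0.72, edgeR adjusted p = 0.0938) and pgVAT (-1.41, edgeR adjusted p = 0.593). Ppp1r3f was higher in iBAT at 34 °C (0.75, edgeR adjusted p = 0.0391).

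Phosphorylase kinase, which activates phosphorylase, had 2 of its 5 listed subunit genes called in ingSAT at 10 °C, against 16.3% of all genes. Phka2 (log2 fold change -0.59, edgeR adjusted p = 0.0264) and Phkg1 (-0.87, edgeR adjusted p = 0.0438) fell, while Phka1 (-0.10), Phkb (0.12) and Phkg2 (0.19) were not called. Stbd1 also fell there (-0.81, edgeR adjusted p = 0.127), whose product ties glycogen to membranes. In iBAT at 34 °C, Stbd1 rose (1.17, SE 0.17, edgeR adjusted p = 0.00396), and the phosphoglucomutases listed as Pgm2 and Pgm1 changed in opposite directions (-0.62 and 0.61, edgeR adjusted p = 0.00983 and 0.0133). These 2 names may be exchanged between count tables, since in iBAT at 22 °C Pgm1 and Pgm2 were at 400.2 and 8.41 CPM in the 10 °C experiment but at 7.94 and 444 CPM in the 34 °C experiment. Gyg was higher in iBAT at 10 °C by less than the fold limit (0.53, edgeR adjusted p = 0.0300).

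Lastly, the members were compared with all other genes by their pattern of mean log2 CPM over the 22 groups of the 10 °C experiment. Gys2 was most like Eci2, Dbt and Retsat (Pearson r from 0.962 to 0.963, over 14846 genes compared), and Gbe1 like Hibch, Ech1 and Acsl1 (0.951 to 0.959). Gys1 was most like Gyg (0.964), with Bckdk also among its closest genes, Pygm like Lrrc2 (0.977), Mypn and Ip6k3, and Pygb like Rhob (0.956), Ywhaq and Stk39. Pygl was most like Rbpms2 (0.959), Abhd15 and C1rl, Ppp1r3c like Ddo (0.954), Fxyd1 and Tcaim, and Ugp2 like Rilp (0.943), Tob1 and Magix. Among the members themselves the closest pairs were Gys2 with Gbe1 (0.926) and Gbe1 with Pygl (0.816). These values describe groups that share tissues, tables and kits, and the 10 °C and 22 °C groups of a tissue are not independent points.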

How the data were processed

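RNA-seq was done on 11 tissues at 10 °C and 5 at 34 °C, each with 22 °C controls. The authors deposited raw counts per gene in 4 tables, and per the labels these were made with STAR 2.5.3a, HTSeq 0.6p1 and Picard 1.141. The kit of 8 tissues (NEBNext Ultra) did not mark strand, and the others used TruSeq stranded mRNA. For quadriceps in the 10 °C experiment this kit is named by the labels. The methods name it only for bone marrow, spinal cord and the 34 °C experiment, and NEBNext Ultra for all other tissues. Labels and methods therefore differ for these quadriceps libraries. Of 106 libraries, 105 were compared, since 1 brain library at 22 °C was left out. The quadriceps controls were split between the experiments by the authors' group means, which match 1999 of 1999 genes. Of 21647 Ensembl identifiers in the largest table, 21583 received a symbol from GENCODE M21.

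CPM were computed after TMM scaling within each comparison, and levels between genes per kb of exon. Each tissue was fitted alone with edgeR 4.0.16 (R 4.3.3, glmQLFit and glmQLFTest) on genes of average log2 CPM above 0, without a pairing term. SE is the log2 fold change over the root of F. Calls use the study's limits (unadjusted p at most 0.05, fold above 1.5), with Benjamini-Hochberg adjusted p over all genes tested. Differences between tissues, depots or experiments were tested as interaction terms. The scripts were tested on simulated data first.

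The 8 members are always named, and of 22 other glycogen genes those called with an adjusted p under 0.05, or at the study's limits in at least 2 comparisons, plus the 3 genes most like each member among genes with a mean of at least 5 CPM in at least 1 group. Some genes under this rule are not reported here. Members, lists and markers were chosen with earlier results of these data known. Alternatives were edgeR's exact test, DESeq2 1.42.0, an adjusted p, scaling by library totals, other filters, all 22 °C libraries, a replicate block and leaving out each library. The promoter windows come from RefSeq (GRCm38.p6), up to 250 bases before the start, cut to the longest stretch outside GENCODE exons.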

Additional observations from a re-analysis of the deposited data

Results flagged for a closer look

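In groups of 5 or 6 libraries, 38 gene and group pairs were checked for a single library far from the rest, and 4 were found, where chance gives about 1 in 20. In bone marrow at 22 °C, the third library held 74.7 CPM of Gys1 and the others 85.2 to 90.2 CPM. In bone marrow at 10 °C, the fourth library held 11.6 CPM of Pygm, against 4.35 to 6.09 CPM, and 0.893 CPM of Ppp1r3c, against 0.219 to 0.393 CPM. In quadriceps at 22 °C, with both control sets together, the library that carried pancreas markers held 12829 CPM of Pygm by a common scaling, against 10326 to 11188 CPM in the other 5.

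Changes that differed between tissues in edgeR's interaction test were, at 10 °C, those of Ugp2 (adjusted p = 0.00472), Ppp1r3c (adjusted p = 0.00504), Gbe1 (adjusted p = 0.0234) and Pygl (adjusted p = 0.0304). At 34 °C they were those of Gbe1 (adjusted p = 0.0197), Ugp2 (adjusted p = 0.0268), Pygl (adjusted p = 0.0418) and Gys2 (adjusted p = 0.0440). In quadriceps, the 10 °C and 34 °C changes differed for Gbe1 (adjusted p = 0.0215), Pygl (adjusted p = 0.0218) and Gys2 (adjusted p = 0.0233).

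The brain library at 22 °C that was left out held more of 5 members than the 5 brain libraries compared. By library total it held 86.2 CPM of Gys2, where those libraries reached at most 0.176 CPM, and 421 CPM of Pygl, against 7.12 to 9.20 CPM. It also held 119 CPM of Gbe1 (27.4 to 32.6 CPM), 312 CPM of Ugp2 (92.7 to 106 CPM) and 155 CPM of Ppp1r3c (103 to 125 CPM). Its 6 liver markers summed to 54236 CPM, against 789 to 1177 CPM.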

How the results depend on the processing

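The 16 calls among the members at 10 °C became 13 to 18 under 9 alternatives, and 15 to 18 when a library was left out, and the 4 calls at 34 °C became 4 to 5 and 3 to 7, with 7 when the third liver 34 °C library was left out. The 13 and 7 calls among the other glycogen genes became 12 to 15 and 6 to 8, and 8 to 18 (8 without the third ingSAT 10 °C library) and 5 to 9 with a library left out. Members whose change differed among tissues at 10 °C numbered 4, and 3 to 5 under alternatives and with a library left out. At 34 °C the 4 became 0 with libraries scaled by their totals alone, 3 without the filter, and 1 to 4 with a library left out (1 or 2 for 12 of the 30 libraries). The 0 members that differed between depots stayed at 0 under 4 alternatives and became 0 to 3 with a library left out, and the 3 that differed between the quadriceps experiments became 0 to 3. The cause of these moves was not tested. Of 258 refits of the 20 single calls, 236 kept the call, 22 lost it and 0 reversed. An adjusted p under 0.05 with no fold limit lost 9 of the 20, and leaving out single libraries lost 10 of 120.

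Same-numbered libraries did not deviate together in every pair of any tissue (correlations from -0.689 to 0.429), so the numbers were not taken as a pairing. With a replicate block there were 15 calls among the members at 10 °C, 13 of 14 single calls were kept (Pygb in iBAT was lost), and 3 members differed among the 8 tissues. Quadriceps libraries carried no shared numbers.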
